A study of Mus musculus with 224 samples.

Results

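The 43 genes described here encode enzymes of amino acid breakdown and the urea cycle, the mitochondrial ornithine carrier Slc25a15, and Psat1 and Asns, which make serine and asparagine. They were chosen by name, from a list of 43 gene symbols matched to the Ensembl gene IDs of the tables. No rule on their values was used, but earlier results of these data were known when they were chosen. All 43 were among the 12611 genes of the liver table. In muscle 41 of them were measured among 13637 genes (Nags and Sdsl were not analysed here), and in adipose tissue 41 among 16542 genes (Nags and Agxt were not analysed here).

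RNA was sequenced from the liver, the soleus (a slow postural muscle of the calf) and the visceral adipose tissue of mice that ate a high fat diet (HFD) or chow (RC, regular chow). The mice were of 3 inbred strains, BALB/cJ, DBA/2J (written DBA/2JJ for some samples) and C57BL/6J (written C57Bl/6J), and were sampled at day 5, 13 or 33 by the sample labels. Each tissue had 18 groups of 4 animals, so 36 HFD and 36 RC libraries. The labels name no mutation, transgene or drug, and the age and sex of the mice and the make-up of the diets are not given here. The series text gives the last period as 13 days, and the labels' day 33 is used. Depth lay between 18078488 and 31991289 reads for liver libraries, between 19945355 and 33370016 for muscle, and between 19783483 and 46795074 for adipose tissue. In liver the hepatocyte gene Alb stood at 15.49 to 16.82 log2 CPM (read counts scaled to library size, on the log2 scale) in all 72 libraries. In muscle the slow fibre myosin Myh7 was at 6.20 log2 CPM in the library of C57BL/6J RC animal 1RC210 at day 33, against 12.11 or more in the other 71. In adipose tissue the adipocyte gene Adipoq was at 2.79 and 3.61 log2 CPM in the libraries of BALB/cJ HFD animals 3HF201 (day 5) and 3HF208 (day 33), against 9.12 or more in the other 70.

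Amino acids that are not needed for protein pass their nitrogen to glutamate and aspartate by transamination, and the liver turns the released ammonia into urea. Cps1 and Otc start the urea cycle in the mitochondria of hepatocytes near the portal vein, Ass1 and Asl go on in the cytosol, and Arg1 releases urea. Hepatocytes near the central vein take up ammonia that is left by making glutamine with Glul. The carbon skeletons are broken down by enzymes such as Tat (tyrosine), Tdo2 (tryptophan), Hal (histidine), Sds (serine) and Prodh (proline), and many of these genes are known to respond to fasting, glucagon, glucocorticoids and dietary protein. Psat1 and Asns run the other way, in synthesis, and are known targets of ATF4, a transcription factor that acts when amino acids are short.

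The 250 bases before the RefSeq transcription start are shown for 4 members whose liver values are described below: Ass1, the urea cycle gene that fell most on HFD, Got1, which shuttles aspartate nitrogen, and the synthesis genes Psat1 and Asns. They lie on GRCm38 at chr2:31470020-31470269 (plus strand, Ass1), chr19:43524606-43524855 (minus strand, Got1), chr19:15925060-15925309 (minus strand, Psat1) and chr6:7693210-7693459 (minus strand, Asns). The RefSeq starts of Ass1, Psat1 and Asns are inside the Ensembl gene spans. The Psat1 window lies wholly within the Ensembl gene, and those of Ass1 and Asns lie partly within it. Capitals mark matches on either strand to TGATGNAA, the letters of the amino acid response element that ATF4 binds with C/EBP partners, and to CCAAT, the element of NF-Y.
Ass1: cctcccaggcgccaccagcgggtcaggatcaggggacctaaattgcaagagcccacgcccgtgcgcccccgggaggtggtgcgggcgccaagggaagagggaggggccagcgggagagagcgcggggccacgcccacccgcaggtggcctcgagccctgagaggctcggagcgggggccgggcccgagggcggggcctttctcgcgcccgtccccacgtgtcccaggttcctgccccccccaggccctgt
Got1: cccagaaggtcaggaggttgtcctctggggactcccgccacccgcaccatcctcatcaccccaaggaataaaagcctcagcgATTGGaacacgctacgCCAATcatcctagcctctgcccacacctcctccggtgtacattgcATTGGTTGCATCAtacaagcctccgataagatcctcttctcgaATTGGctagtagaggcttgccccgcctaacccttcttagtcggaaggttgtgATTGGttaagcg
Psat1: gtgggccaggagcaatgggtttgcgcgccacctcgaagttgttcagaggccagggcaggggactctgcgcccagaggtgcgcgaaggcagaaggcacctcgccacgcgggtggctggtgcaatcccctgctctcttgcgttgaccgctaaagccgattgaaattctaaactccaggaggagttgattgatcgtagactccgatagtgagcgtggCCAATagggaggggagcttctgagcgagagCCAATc
Asns: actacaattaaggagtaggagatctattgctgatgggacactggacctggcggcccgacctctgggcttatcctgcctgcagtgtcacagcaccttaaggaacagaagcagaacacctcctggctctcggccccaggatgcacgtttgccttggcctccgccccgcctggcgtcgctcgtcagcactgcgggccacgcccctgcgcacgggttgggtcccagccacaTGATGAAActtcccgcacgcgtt
Asns has TGATGNAA 23 to 16 bases before its start, and Got1 has it on the reverse strand at 102 to 95 bases, directly beside a CCAAT. Psat1 has 2 CCAAT matches, at 36 to 32 and 6 to 2 bases, Got1 has 5, and Ass1 has neither motif. Of 33 members with a RefSeq promoter, 2 (Got1 and Asns) held TGATGNAA, against 3.45% of 32851 mouse promoters. The cyclic AMP element TGACGTCA was in 0 of the 33, against 1.55% of all promoters, and CCAAT in 16 of the 33, against 33.8%. These matches are letters in a window and no measure of binding.

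In liver the members spanned a wide range of levels. Per kilobase of exon, the glycine methyltransferase Gnmt (966 CPM per kb), the tyrosine enzyme Hpd (871), the methionine adenosyltransferase Mat1a (784), Tat (780), Cps1 (660), Ass1 (629) and Arg1 (618) stood highest. The lowest were Bcat2 (3.32 CPM per kb), which starts branched-chain amino acid breakdown mainly outside the liver, Asns (0.355) and Psat1 (0.259). Psat1 had a median of 23 reads per liver library (6 to 212) and Asns 21 (1 to 240), so their values are less precise than those of the other members.

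On HFD the liver members mostly moved down. Over all strains and days, 21 of the 43 were lower on HFD and 3 were higher (limma, adjusted p below 0.05 over all 12611 genes), while 10.3% of all genes were called lower and 10.9% higher. The median log2 difference, HFD minus RC, was -0.10 over the 43 members and 0.01 over all genes. At an unadjusted p below 0.05, 27 members and 4156 of all 12611 genes passed. Animals are named by their titles, such as 1HF257, without the tissue letter. Their numbers fall into 3 ranges, and the lower, middle and upper range hold 29, 18 and 21 animals of 5, 4 and 5 strain and day pairs with both diets. Of the 24 called members 18 kept their sign in every range and 6 (Gpt2, Tat, Fah, Sds, Uroc1 and Ftcd) did not. Within the lowest range 24 members were called, and within each of the other two ranges 1. In bulk tissue fewer cells of a type and less RNA per cell cannot be told apart.

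**Figure D1:**
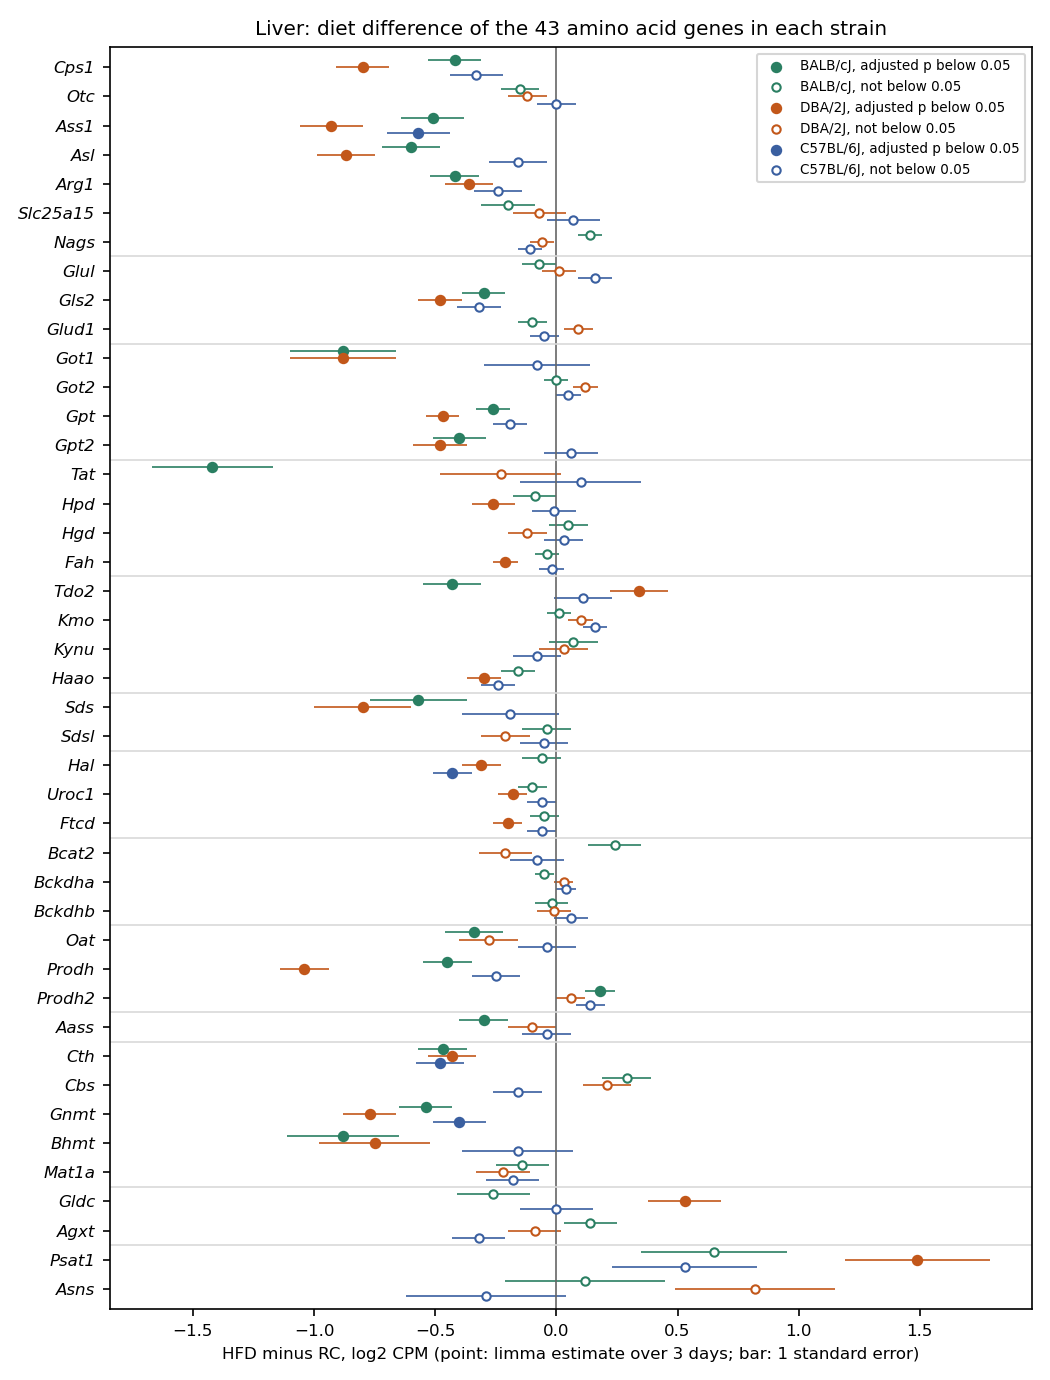
Difference between HFD and RC livers in log2 CPM (x axis) for the 43 genes, grouped by role (y axis), in BALB/cJ (green), DBA/2J (orange) and C57BL/6J (blue). Points are limma estimates over the 3 days, bars are 1 SE, and filled points have an adjusted p below 0.05. Filled points lie mostly left of 0: 17 of 18 in BALB/cJ, 19 of 22 in DBA/2J and 4 of 4 in C57BL/6J.

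Of the 7 urea cycle genes, 4 fell on HFD and 0 rose, with a group median of -0.34. Ass1 (argininosuccinate synthase, ENSMUSG00000076441.9, chromosome 2, 31470207 to 31520672, GRCm38) ranged over 8.99, 10.21 and 11.24 log2 CPM (lowest, median, highest) in 36 HFD livers, against 10.39, 10.93 and 11.44 in 36 RC livers. HFD livers thus reached far below the lowest RC liver, while their upper ends overlapped. The difference was -0.67 ± 0.07 (SE), a level 0.629 times that on RC (adjusted p = 4.72e-10). Cps1, which makes carbamoyl phosphate (ENSMUSG00000025991.8, chromosome 1, 67123026 to 67231259), averaged 11.58 ± 0.56 on HFD and 12.10 ± 0.22 on RC (SD over 36 animals each) and fell by 0.52 on the log2 scale (adjusted p = 1.33e-08). Asl, which splits argininosuccinate (ENSMUSG00000025533.15, chromosome 5, 130011258 to 130029247), averaged 8.57 ± 0.57 on HFD and 9.11 ± 0.33 on RC and fell by 0.54 (adjusted p = 7.21e-09). The SD on HFD was above that on RC for all 3 genes. Arg1, which releases urea (ENSMUSG00000019987.9, chromosome 10, 24915221 to 24927484), fell by 0.34 (adjusted p = 2.37e-05). Otc, which makes citrulline, averaged 9.06 ± 0.26 on HFD and 9.15 ± 0.15 on RC (adjusted p = 0.143). Slc25a15 and Nags, whose product activates Cps1, did not pass the test either.

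Of the 4 aminotransferases of aspartate and alanine, which feed nitrogen into the cycle, 3 fell and 0 rose, with a group median of -0.29. Got1 (cytosolic aspartate aminotransferase, ENSMUSG00000025190.13, chromosome 19, 43499752 to 43524605) ranged over 5.12, 7.03 and 9.22 log2 CPM in HFD livers, against 6.35, 7.80 and 8.33 in RC livers. HFD livers thus reached both below and above all RC livers. Got1 fell by 0.61 ± 0.13 (SE) on the log2 scale (adjusted p = 0.000213). The alanine aminotransferases Gpt (-0.30, adjusted p = 1.11e-07) and Gpt2 (-0.27, adjusted p = 0.000685) also fell, and Got2, the mitochondrial aspartate enzyme, was not called. In glutamine and glutamate handling, 1 of 3 genes was called: Gls2, the liver glutaminase that frees ammonia beside Cps1, averaged 7.95 ± 0.39 on HFD and 8.32 ± 0.27 on RC (log2 difference -0.37, adjusted p = 6.04e-07). Glul differed by 0.03 and Glud1, which releases ammonia from glutamate, was not called.

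In the methionine cycle and transsulfuration, 4 of 5 genes fell, with a group median of -0.46. Gnmt, which burns surplus S-adenosylmethionine (ENSMUSG00000002769.8, chromosome 17, 46725664 to 46729168), averaged 9.90 ± 0.44 log2 CPM on HFD and 10.47 ± 0.25 on RC (difference -0.57 ± 0.07 SE, adjusted p = 1.48e-09). Cth, which makes cysteine from cystathionine (ENSMUSG00000028179.12, chromosome 3, 157894248 to 157925077), ranged over 7.37, 8.01 and 8.67 on HFD, against 7.85, 8.42 and 8.97 on RC. The Cth ranges overlapped over most of their length, and diet took 43.3% of the variance of Cth, the highest share of diet among the 43 members. Cth fell by 0.46 (adjusted p = 3.22e-09). Bhmt, which remethylates homocysteine with betaine (ENSMUSG00000074768.6, chromosome 13, 93616675 to 93637961), fell by 0.60 ± 0.13 (SE, adjusted p = 0.000493), and Mat1a fell by 0.18 (adjusted p = 0.0345). Cbs, which makes cystathionine, differed by 0.12 (adjusted p = 0.171).

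Among the enzymes that open the carbon skeletons, Prodh (proline dehydrogenase, ENSMUSG00000003526.11, chromosome 16, 18060357 to 18090203) ranged over 6.14, 7.34 and 7.99 log2 CPM on HFD, against 7.05, 7.84 and 8.36 on RC. It fell by 0.58 ± 0.06 (SE, adjusted p = 1.3e-11), the smallest adjusted p of the 43 members in this comparison. In the same group of ornithine and proline genes, Oat (ornithine aminotransferase) fell by 0.22 (adjusted p = 0.0147) and Prodh2, which acts on hydroxyproline, rose by 0.12 (adjusted p = 0.00822). All 3 histidine genes fell: Hal, which opens the pathway, averaged 8.21 ± 0.32 on HFD and 8.48 ± 0.37 on RC (difference -0.27, adjusted p = 1.23e-05), and Uroc1 and Ftcd, the later steps, fell too. Of 4 tyrosine genes, Tat, the entry enzyme (-0.52, adjusted p = 0.00669), and Fah, the last enzyme (-0.09, adjusted p = 0.00909), fell. Of 4 tryptophan genes, Haao, which leads toward NAD (-0.23, adjusted p = 1.92e-05), fell and Kmo, the kynurenine hydroxylase, rose (0.09, adjusted p = 0.0305). Of the pair of serine and threonine dehydratases, Sds fell (-0.52, adjusted p = 0.000608) and Sdsl was not called. The branched-chain group had 0 of 3 genes called, with a median of 0.01, and neither Aass (lysine) nor the glycine and glyoxylate genes Gldc and Agxt were called.

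Psat1, the phosphoserine aminotransferase (ENSMUSG00000024640.9, chromosome 19, 15904678 to 15947337), was the member with the largest rise. It ranged over -1.54, 0.52 and 3.29 log2 CPM in HFD livers, against -2.0, -0.31 and 1.5 in RC livers. The upper HFD livers lay above all RC livers, and the lower ends overlapped. The difference was 0.89 ± 0.17 (SE), a 1.85-fold higher level (adjusted p = 0.000101). Asns (asparagine synthetase, ENSMUSG00000029752.12, chromosome 6, 7675169 to 7693254) differed by 0.22 ± 0.19 over all strains and days (adjusted p = 0.458).

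By strain, BALB/cJ had 18 called members (1 up, 17 down; 10 with quantile normalization), DBA/2J had 22 (3 up, 19 down) and C57BL/6J had 4 (0 up, 4 down). Over all genes 7.89% were called higher and 6.91% lower in BALB/cJ, 10.6% and 11% in DBA/2J, and 1.02% and 1.28% in C57BL/6J. The members' median difference was -0.14 in BALB/cJ, -0.21 in DBA/2J and -0.06 in C57BL/6J. The 4 genes called in C57BL/6J were Ass1 (-0.57, adjusted p = 0.00521), Cth (-0.48, adjusted p = 0.000916), Hal (-0.43, adjusted p = 0.000369) and Gnmt (-0.40, adjusted p = 0.0453). At an unadjusted p below 0.05 C57BL/6J had 15 members and 1631 of all genes. The C57BL/6J count was 7 without HFD animal 1HF250 of day 5 and 8 without HFD animal 1HF257 of day 33. The 3 members that rose in DBA/2J were Psat1 (1.49 ± 0.30 SE, 2.80-fold, adjusted p = 0.000166), Gldc (glycine decarboxylase, 0.53, adjusted p = 0.00711) and Tdo2 (0.34, adjusted p = 0.0316).

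**Figure D2:**
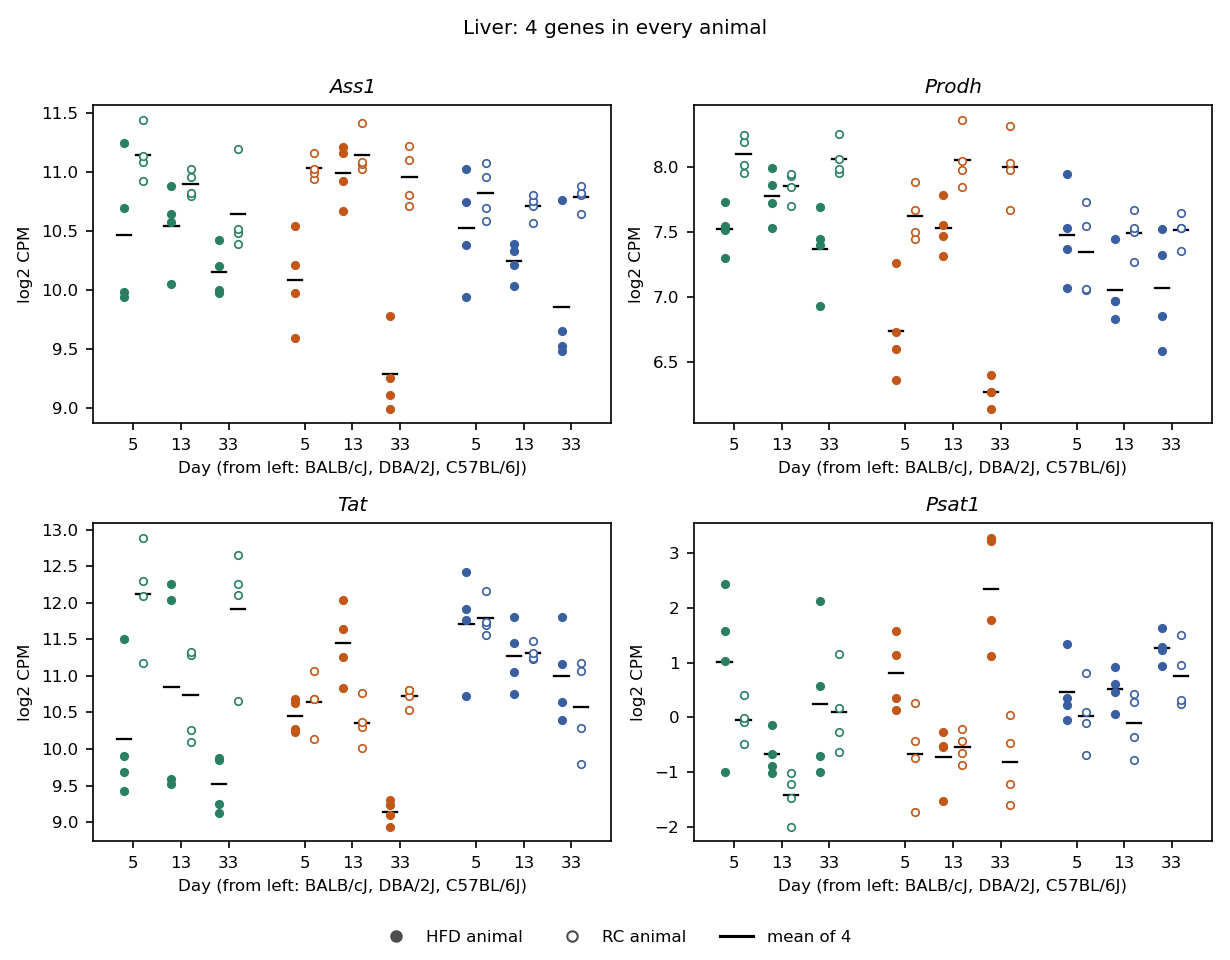
Liver log2 CPM (y axis) of Ass1, Prodh, Tat and Psat1 in each animal at day 5, 13 and 33 (x axis), with BALB/cJ, DBA/2J and C57BL/6J from left to right. Filled points are HFD, open points RC, and lines are means of 4 animals. At day 33 the 4 DBA/2J HFD livers lie below the 4 RC livers for Ass1 and Prodh and above them for Psat1.

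The diet effect differed between strains for 9 of the 43 members (limma, 15.7% of all genes). Prodh had the smallest adjusted p for this difference (0.000163). Strain and number range were partly tied and cannot be fully told apart here. In some strain and day groups, such as BALB/cJ at day 33, diet and range were partly tied as well. Prodh fell in DBA/2J (6.84 ± 0.59 on HFD and 7.89 ± 0.29 on RC, SDs over 12 livers), to 0.485 times the RC level (adjusted p = 3.88e-12). In BALB/cJ it fell by 0.45 (adjusted p = 0.00132), and in C57BL/6J the difference was -0.25 (adjusted p = 0.222). The DBA/2J effect on Prodh differed from that in BALB/cJ by -0.59 (adjusted p = 0.00508) and from that in C57BL/6J by -0.79 (adjusted p = 9.76e-05). At day 33 Prodh was at 6.14, 6.27, 6.27 and 6.4 log2 CPM in the 4 DBA/2J HFD livers, against 7.67, 7.97, 8.03 and 8.31 in the 4 RC livers. Every HFD liver lay more than 1 log2 unit below every RC liver.

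Tat (tyrosine aminotransferase, ENSMUSG00000001670.13, chromosome 8, 109990437 to 109999803) had its fall in BALB/cJ, with 10.17 ± 1.1 log2 CPM on HFD and 11.59 ± 0.93 on RC (SD over 12 animals each). The difference was -1.42 ± 0.25 (SE) in BALB/cJ (adjusted p = 6.65e-05), -0.23 in DBA/2J (adjusted p = 0.559) and 0.10 in C57BL/6J (adjusted p = 0.943). These effects differed between strains (adjusted p = 0.00398). At day 33 the 4 BALB/cJ HFD livers had 9.13, 9.25, 9.85 and 9.88, against 10.65, 12.10, 12.25 and 12.65 in the RC livers. The groups did not overlap, and the lowest RC liver stood apart from the other 3. In BALB/cJ at day 33 most HFD animals were in the upper number range and most RC animals in the lower one. Diet and range therefore cannot be fully told apart in that group, for Tat or for Tdo2. Tdo2 (tryptophan dioxygenase, ENSMUSG00000028011.16, chromosome 3, 81957090 to 81976202) moved in opposite directions: it fell in BALB/cJ (-0.43, adjusted p = 0.0106) and rose in DBA/2J (0.34, adjusted p = 0.0316), and the DBA/2J minus BALB/cJ difference of effects was 0.77 (adjusted p = 0.00251). At day 33 Tdo2 was at 10.25, 10.43, 10.65 and 10.78 in BALB/cJ HFD livers, against 10.63, 11.41, 11.55 and 11.96 in RC livers. In DBA/2J it was at 10.89, 10.96, 11.04 and 11.29 on HFD, against 10.57, 10.63, 10.64 and 10.91 on RC, and in C57BL/6J at 10.43, 10.44, 10.75 and 10.96 on HFD, against 10.29, 10.30, 10.67 and 11.02 on RC. BALB/cJ HFD livers were low with 1 RC liver among them, DBA/2J HFD livers were high with 1 pair crossing, and the C57BL/6J groups overlapped.

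The other 6 members whose diet effect differed between strains were Asl (adjusted p = 0.00546), Gpt2 (0.0166), Gldc (0.0173), Nags (0.0277), Hal (0.0423) and Fah (0.0489). Asl fell in DBA/2J (-0.87, adjusted p = 6.33e-08) and BALB/cJ (-0.60, adjusted p = 0.000239), with -0.16 in C57BL/6J (adjusted p = 0.639). Gpt2 fell in DBA/2J (-0.48) and BALB/cJ (-0.40), with 0.06 in C57BL/6J. Gldc rose in DBA/2J, where it averaged 8.18 ± 0.36 on HFD and 7.65 ± 0.33 on RC, with -0.26 in BALB/cJ. Nags, not called in any strain alone, differed by 0.14 in BALB/cJ and -0.11 in C57BL/6J. Hal differed by -0.06 in BALB/cJ and called falls in DBA/2J (-0.31) and C57BL/6J (-0.43). Got1 averaged lower on HFD by 0.88 in both BALB/cJ (adjusted p = 0.00379) and DBA/2J (adjusted p = 0.00201), with -0.08 in C57BL/6J, and Psat1 differed by 0.65 in BALB/cJ (adjusted p = 0.137) and 0.53 in C57BL/6J (adjusted p = 0.482). For neither of them did the effect pass the test of a difference between strains.

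By day, over the 3 strains, 10 members were called at day 5 (1 higher, Psat1, and 9 lower), 2 at day 13 (0 higher, Cth and Prodh lower) and 27 at day 33 (2 higher, Psat1 and Cbs, and 25 lower). Over all genes 3.20% were called higher and 3.28% lower at day 5, 1.26% lower at day 13, and 7.92% higher and 8.39% lower at day 33. The 2 calls at day 13 became 1 when any of 40 libraries was left out. No day 13 animal was in the lower number range, so day and range cannot be fully told apart either. The diet effect differed between days for 8 members, against 3.35% of all genes: Sds (adjusted p = 0.00517), Prodh (0.0114), Tat (0.0128), Asl (0.0154), Aass (0.0225), Ass1 (0.0425), Gpt2 (0.0430) and Cps1 (0.0435). This count was 14 without C57BL/6J HFD animal 1HF257 of day 33 and 5 without any of 15 other libraries. Sds (serine dehydratase, ENSMUSG00000029597.14, chromosome 5, 120476526 to 120483932) averaged 7.41 on HFD and 7.92 on RC at day 5, 7.95 on HFD and 7.76 on RC at day 13, and 6.58 ± 0.55 on HFD and 7.82 ± 0.54 on RC at day 33 (SD, n = 12 each). Its difference was -0.51 at day 5, 0.19 at day 13 and -1.24 at day 33, and the last of these passed (adjusted p = 9.82e-06). On RC 0 members differed between day 33 and day 5 by limma, with 2 of them and 1595 of all genes at an unadjusted p below 0.05, and 0.666% of all genes were called.

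Split by strain and day, with 4 animals a group, DBA/2J at day 33 had 24 members called (3 higher, 21 lower), against 15.9% of all genes, and a median difference of -0.40. BALB/cJ had 9 at day 5 (12.5% of all genes), 0 at day 13 (0.365%) and 14 at day 33 (9.59%). DBA/2J had 7 at day 5 (6.97% of all genes) and 0 at day 13 (1.91%). C57BL/6J had 0 at day 5 (0.135%), 0 at day 13 (0.317%) and 6 at day 33 (0.912%), namely Ass1, Gls2, Haao, Hal, Cth and Agxt, all lower. Single animals weighed on some of these counts. C57BL/6J at day 33 had 0 without 1HF258 or 1HF259, 1 to 3 without 1HF209, 1RC210, 1RC211 or 1RC235, and 10 without 1HF257. BALB/cJ at day 5 had 2 to 4 without 3HF202, 3HF203, 3RC201 or 3RC203 and 17 without 3HF224, and at day 33 it had 5 without 3RC209, 6 without 3HF208 and 9 without 3HF258.

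In DBA/2J all animals of day 5 and day 33 were in the lower number range and all animals of day 13 outside it. Day 13 and number range thus cannot be told apart in this strain. Ass1 in DBA/2J differed in its diet difference from day to day. At day 5 its levels were 9.59, 9.97, 10.21 and 10.54 log2 CPM on HFD, against 10.94, 10.99, 11.02 and 11.16 on RC. At day 13 they were 10.67, 10.92, 11.16 and 11.21 on HFD, against 11.02, 11.06, 11.08 and 11.41 on RC. At day 33 they were 8.99, 9.11, 9.25 and 9.78 on HFD, against 10.71, 10.80, 11.10 and 11.22 on RC. The groups were apart at day 5, overlapped at day 13 and were farthest apart at day 33, with differences of -0.95 (adjusted p = 0.0037), -0.15 and -1.68 (adjusted p = 1.66e-07). In BALB/cJ at day 33 Ass1 was at 9.97, 10, 10.20 and 10.42 on HFD, against 10.39, 10.48, 10.51 and 11.19 on RC. In C57BL/6J at day 33 it was at 9.48, 9.52, 9.65 and 10.76 on HFD, against 10.64, 10.80, 10.82 and 10.88 on RC. In both strains a single HFD liver lay within the RC range and the other 3 below it.

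Psat1 in DBA/2J moved on the same days in the other direction, with the same tie of day 13 to number range. On HFD it was at 0.13, 0.36, 1.14 and 1.58 log2 CPM at day 5, -1.54, -0.55, -0.52 and -0.27 at day 13, and 1.13, 1.78, 3.23 and 3.29 at day 33. On RC it was at -1.74, -0.74, -0.44 and 0.27 at day 5, -0.87, -0.66, -0.43 and -0.21 at day 13, and -1.60, -1.22, -0.47 and 0.04 at day 33. The diets overlapped at day 5 and day 13 and were apart at day 33, where Psat1 was 9-fold higher (log2 3.17 ± 0.52 SE, adjusted p = 1.11e-05). Asns in DBA/2J at day 33 was at 0.05, 0.53, 1.79 and 2.56 on HFD, against -2.19, -2.11, -1.37 and -0.75 on RC, with no overlap, a 7.15-fold higher level (adjusted p = 0.000271). In C57BL/6J at day 33 Asns was at -0.10, 0.75, 0.91 and 1.07 on HFD, against 0.55, 1.28, 2.11 and 2.85 on RC, and the groups overlapped. In DBA/2J Got1 moved the other way from Psat1 and Asns. At day 33 it was at 5.12, 5.44, 5.58 and 6.38 in DBA/2J HFD livers, against 7.25, 7.50, 7.82 and 8.15 in RC livers. All 4 HFD livers lay below all RC livers, at 0.242 times the level (adjusted p = 7.88e-05).

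Agxt, Cbs and Nags were called in single strain and day groups without a call over all strains and days. So were Tdo2 and Aass in BALB/cJ at day 5 and day 33, where Aass was lower on HFD. Hpd, Sdsl, Gldc and Asns were called in this way in DBA/2J at day 33. Agxt, which clears glyoxylate (ENSMUSG00000026272.6, chromosome 1, 93135240 to 93145421), rose in BALB/cJ at day 33, with 6.65, 7.61, 7.83 and 8.03 log2 CPM on HFD, against 6.71, 6.92, 6.94 and 7.25 on RC (difference 0.57, adjusted p = 0.0388). In C57BL/6J at day 33 it fell, with 6.18, 6.48, 6.74 and 7.30 on HFD, against 7.37, 7.37, 7.56 and 7.76 on RC (-0.84, adjusted p = 0.0136). In BALB/cJ 3 HFD livers lay above all RC livers and 1 below them, and in C57BL/6J the diets did not overlap. Cbs rose in BALB/cJ at day 33 (0.74, adjusted p = 0.00502), and Nags rose there at day 5 (0.32, adjusted p = 0.0144).

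Markers of hepatocytes moved with the liver result. The 13 hepatocyte markers together held 10.3 to 16.6% of CPM in HFD livers (median 12.5%) and 10.9 to 17.8% in RC livers (median 13.5%), with 0 of them at zero reads. Of the 13, 7 were lower on HFD and 0 higher, with a median of -0.14 and Alb at -0.21. With their summed level as a covariate, 19 members were called over all strains and days (2 higher, 17 lower), all among the 24, and Tat was not among them. In C57BL/6J 2 were then called, Ass1 and Gnmt no longer among them, and in DBA/2J 22. For 2 members the diet effect then differed between days. Of 20 periportal genes that are no members, 1 was higher and 8 lower, and of 30 pericentral genes 4 were higher and 11 lower. Erythroid genes were lower for 3 of 6, macrophage genes higher for 1 of 13, and lymphocyte (1 of 4), endothelial (1 of 10) and stellate (1 of 11) genes lower, with 0 of 7 bile duct genes called. The part of these shifts in the members' result was not tested.

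Other genes of amino acid breakdown were split. Of 76 such genes that are no members, 10 were higher on HFD and 20 lower over all strains and days, with a median of -0.03. They included Gcat, which breaks down threonine (-0.50, adjusted p = 5.86e-16), Csad, which makes taurine (-0.74, adjusted p = 4.23e-06), and Acmsd, which diverts tryptophan from NAD (-0.55, adjusted p = 0.00593). Of 24 amino acid transporters 2 were higher and 7 lower (median -0.04), among them the neutral carrier Slc1a4 (0.64, adjusted p = 2.27e-06) and the glutamate carrier Slc1a2 (-0.40, adjusted p = 4.81e-06). Of 29 amino acid response and serine synthesis genes, known from ATF4 studies, 12 were higher and 1 lower over all strains, with a median of 0.10. In DBA/2J, where Psat1 rose, 12 were higher and 0 lower, among them the hormone gene Fgf21 (2.31, adjusted p = 1.25e-05) and the folate enzyme Mthfd2 (1.38, adjusted p = 6.14e-06). In BALB/cJ 3 were higher and 4 lower, and in C57BL/6J 0 were called. Of 25 genes that respond to fasting and glucocorticoids, 0 were higher and 14 lower in BALB/cJ, where Tat fell, with a median of -0.56. The transcription factors Zbtb16 (-1.75) and Cebpd (-1.46) and the clock gene Per1 (-1.40) were among the 14. In DBA/2J this list had 1 higher and 3 lower and in C57BL/6J 1 higher and 0 lower. Of 17 clock genes, 2 were higher and 8 lower in DBA/2J, with Arntl at 2.15 and Ciart at -2.10, so time-of-day genes also moved with diet there. The part of these genes in the members' result was not tested.

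On RC the strains differed in many members. DBA/2J had 20 higher and 6 lower than C57BL/6J (23.9% and 24.2% of all genes), BALB/cJ had 20 higher and 8 lower than C57BL/6J (22.9% and 23.9%), and BALB/cJ had 6 higher and 13 lower than DBA/2J (20.6% and 21.5%). Bckdhb, a subunit of the branched-chain ketoacid dehydrogenase (ENSMUSG00000032263.14, chromosome 9, 83925145 to 84124240), ranged over 6.87, 7.16 and 7.48 log2 CPM in BALB/cJ RC livers, 6.98, 7.20 and 7.43 in DBA/2J and 5.67, 5.92 and 6.14 in C57BL/6J (lowest, median, highest, n = 12 each). C57BL/6J lay below both other strains with no overlap, and BALB/cJ and DBA/2J overlapped. The differences from C57BL/6J were 1.27 in BALB/cJ (2.40-fold, adjusted p = 5.09e-24) and 1.31 in DBA/2J (2.47-fold, adjusted p = 9.88e-25). Strain took 91.4% of the variance of Bckdhb over the 72 livers. All reads went to GRCm38, whatever the strain, and the part of sequence differences in these levels was not tested.

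**Figure D3:**
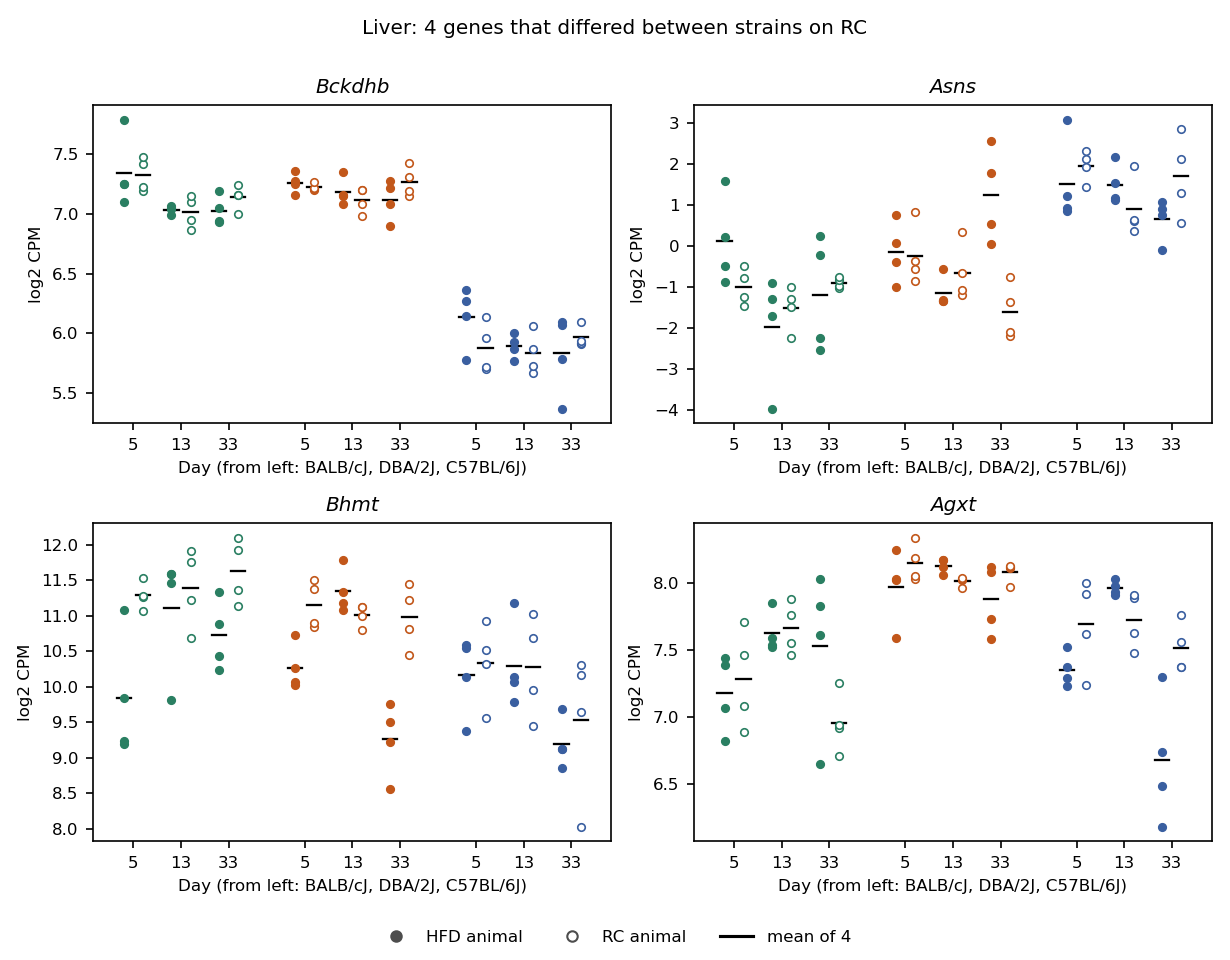
Liver log2 CPM (y axis) of Bckdhb, Asns, Bhmt and Agxt in each animal at day 5, 13 and 33 (x axis), with BALB/cJ, DBA/2J and C57BL/6J from left to right. Filled points are HFD, open points RC, and lines are means of 4 animals. Bckdhb on RC lies between 5.67 and 6.14 in C57BL/6J and at 6.87 or more in the other strains.

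Asns ran opposite to Bckdhb, with -1.13 ± 0.46 log2 CPM in BALB/cJ RC livers, -0.83 ± 0.87 in DBA/2J and 1.51 ± 0.82 in C57BL/6J (SD, n = 12 each). BALB/cJ had 0.160 times and DBA/2J 0.197 times the C57BL/6J level (adjusted p = 8.81e-10 and 2.24e-08). Bhmt averaged 11.44 ± 0.42 in BALB/cJ, 11.05 ± 0.31 in DBA/2J and 10.05 ± 0.82 in C57BL/6J, whose livers ranged from 8.03 to 11.02. It was higher in BALB/cJ (1.39, adjusted p = 6.8e-07) and DBA/2J (1.00, adjusted p = 0.000197) than in C57BL/6J. Glul (ENSMUSG00000026473.15, chromosome 1, 153899944 to 153909723) was at 9.10 in BALB/cJ, 9.41 in DBA/2J and 9.79 in C57BL/6J, and the BALB/cJ minus C57BL/6J difference was -0.68 (adjusted p = 8e-13). Psat1 was lower in DBA/2J than C57BL/6J (-0.90, adjusted p = 0.0109), a call that was lost with voom on the recovered reads. Between BALB/cJ and DBA/2J, Tat was higher in BALB/cJ (1.01, adjusted p = 0.000773), while Agxt (-0.78, adjusted p = 1.73e-08), Hal (-0.73, adjusted p = 2.15e-11; ENSMUSG00000020017.14, chromosome 10, 93488768 to 93519304) and Bcat2 (-0.69, adjusted p = 5.99e-07) were lower there. Hal averaged 8.06 in BALB/cJ, 8.79 in DBA/2J and 8.57 in C57BL/6J.

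Over the 72 livers, differences between animals of the same group took the largest share of variance in 24 of the 43 members, strain in 13 and diet in 6. The median shares were 32.9% for animals, 21.9% for strain, 5.72% for diet and 5.87% for day. The share of animals was highest for Hgd, a tyrosine enzyme (59.6%).

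In muscle the members with high levels per length were Got1, the highest, Got2 (122 CPM per kb), Bckdha, the other subunit of the branched-chain dehydrogenase (104), Oat (68.7) and Glul (58.5). Many others were near the floor and followed hepatocyte markers. Alb ranged from -1.54 to 12.41 log2 CPM over the 72 libraries, and the hepatocyte markers summed to 0.00132 to 0.156% of CPM on HFD (median 0.00648%) and 0.000681 to 0.871% on RC (median 0.0115%). Across separately normalized tables, the level that this marker sum would bring, at the ratio found in liver, was set against each member's muscle level. This ratio had a median of 236% for Cps1 and 115% for Otc, was over 50% for 20 of the 41 members and under 10% for 17. The part of hepatocyte RNA in the values of the other 24 was not tested further, and the results below are of the 17 unless another gene is named.

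For diet, 5 of 41 members were called in muscle over all strains and days (2 higher, 3 lower, by limma). This was a smaller share than the 17.4% of all genes called. At an unadjusted p below 0.05 there were 11 members and 4225 of all 13637 genes. The median difference was -0.55 over the 41 members, -1.1 over the 13 hepatocyte markers (0 called) and 0.00 over all genes. All 5 called members were among the 17. Psat1 averaged 3.23 ± 0.47 log2 CPM on HFD and 2.61 ± 0.54 on RC (SD over 36 animals each) and rose 1.54-fold (log2 0.62 ± 0.09 SE, adjusted p = 2.85e-07). At day 33 Psat1 was at 3.06, 3.32, 3.38 and 3.46 in BALB/cJ HFD muscles, against 2.49, 2.62, 2.84 and 3.28 in RC muscles. In DBA/2J it was at 3.06, 3.17, 3.20 and 3.27 on HFD, against 2.62, 3.02, 3.03 and 3.07 on RC. In C57BL/6J it was at 2.20, 2.73, 3.01 and 3.32 on HFD, against 0.52, 2.36, 2.45 and 2.48 on RC. HFD muscles were the higher ones in each strain with some overlap, and the C57BL/6J value of 0.52 was that of animal 1RC210. Without that animal Psat1 rose by 0.57 (adjusted p = 9.16e-09), and the other 4 calls were kept. Asns rose too (1.53 ± 0.36 on HFD and 1.25 ± 0.45 on RC, difference 0.29, adjusted p = 0.0170). Markers of other cells moved with diet as well. The 12 adipocyte markers summed to 0.368 to 0.761% of CPM on HFD (median 0.535%) and 0.12 to 0.555% on RC (median 0.462%), with 0 of them at zero reads in all libraries, and 5 were higher and 0 lower (median difference 0.36). Per length, adipose tissue had Psat1 at 28 CPM per kb and Asns at 17.4, and muscle had them at 1.77 and 0.957, across tables that were normalized separately. Of 9 endothelial markers 5 were higher, of 13 lymphocyte markers 4 were higher, of 6 erythroid markers 4 were lower and of 13 fast fibre markers 7 were lower. The part of these shifts in the members' result was not tested.

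**Figure D4:**
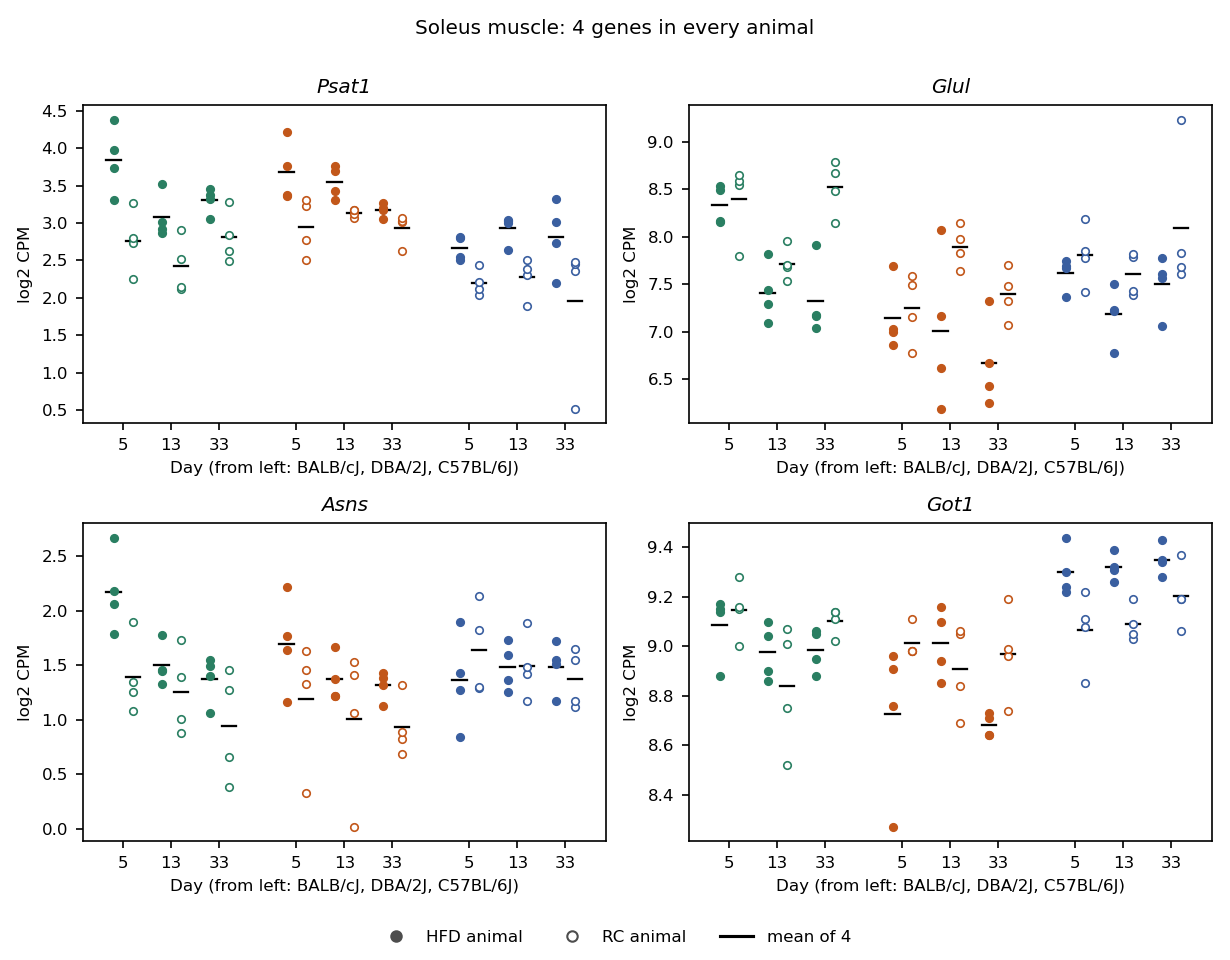
Soleus log2 CPM (y axis) of Psat1, Glul, Asns and Got1 in each animal at day 5, 13 and 33 (x axis), with BALB/cJ, DBA/2J and C57BL/6J from left to right. Filled points are HFD, open points RC, and lines are means of 4 animals. In BALB/cJ at day 33 the HFD muscles have Glul at 7.04 to 7.91 and the RC muscles at 8.14 to 8.78.

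Glul, by which muscle exports nitrogen as glutamine, averaged 7.35 ± 0.57 log2 CPM on HFD and 7.85 ± 0.52 on RC and fell by 0.50 ± 0.09 (SE, adjusted p = 5.81e-05). At day 33 it was at 7.04, 7.16, 7.18 and 7.91 in BALB/cJ HFD muscles, against 8.14, 8.48, 8.67 and 8.78 in RC muscles. In DBA/2J it was at 6.25, 6.43, 6.67 and 7.32 on HFD, against 7.07, 7.32, 7.48 and 7.70 on RC. In C57BL/6J it was at 7.06, 7.57, 7.61 and 7.78 on HFD, against 7.61, 7.68, 7.83 and 9.23 on RC. The diets did not overlap in BALB/cJ, overlapped through 1 HFD muscle in DBA/2J and overlapped in C57BL/6J. The C57BL/6J value of 9.23 was that of animal 1RC210, whose library had low Myh7. Without that animal Glul fell by 0.46 over all strains and days (limma, adjusted p = 4.5e-05). Prodh fell by 0.33 (3.4 ± 0.52 on HFD and 3.73 ± 0.43 on RC, adjusted p = 0.0171) and Bckdhb by 0.11 (adjusted p = 0.0239). For Prodh the level that hepatocyte RNA would bring had a median of 1.13% of that in muscle but reached 64.3%, and it was over 10% in 14 of the 72 libraries. The Prodh call was kept with the hepatocyte markers as a covariate.

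By strain, BALB/cJ muscle had 4 members called (11.5% of all genes): Psat1 (0.74, adjusted p = 0.000739), Asns (0.49, adjusted p = 0.0264), Glul (-0.52, adjusted p = 0.0225) and Bckdhb (-0.22, adjusted p = 0.0122). DBA/2J had 3 (8.73%): Psat1 (0.46, adjusted p = 0.0381), Glul (-0.57, adjusted p = 0.0117) and Glud1 (-0.14, adjusted p = 0.0316). C57BL/6J had 3 (5.75%): Psat1 (0.66, adjusted p = 0.00245), Gpt (0.34, adjusted p = 0.0244) and Got1 (0.20, adjusted p = 0.0267). The DBA/2J count was 1 without 2HF208, 2HF209, 2RC200, 2RC209 or 2RC231, and 5 without 2HF200, 2HF211, 2HF230, 2RC202 or 2RC210. The C57BL/6J count was 1 without animal 1RC210, with Psat1 at 0.50 (adjusted p = 0.007), Gpt at 0.27 (0.0812) and Got1 at 0.19 (0.0556). The diet effect differed between strains for Got1 (adjusted p = 0.00868) and Gpt (adjusted p = 0.0413), 2 members against 9.83% of all genes, and leaving out any of 25 libraries left 1 (without 1RC210, Gpt had an adjusted p of 0.0725). Got1 was at 9.32 ± 0.07 on HFD and 9.12 ± 0.13 on RC in C57BL/6J (12 muscles each, SD), with differences of -0.01 in BALB/cJ and -0.16 in DBA/2J, neither called.

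On RC, 9 members differed in muscle of DBA/2J against C57BL/6J (37% of all genes), 14 in BALB/cJ against C57BL/6J (44.5%) and 13 in BALB/cJ against DBA/2J (40.4%). Of these 8, 9 and 5 were among the 17 genes. For each pair the share of members called was below that of all genes. Bcat2, the branched-chain aminotransferase of muscle, was higher in DBA/2J than C57BL/6J (0.70, adjusted p = 6.53e-09) and lower in BALB/cJ than DBA/2J (-0.80, adjusted p = 1.99e-10). Bckdhb was higher in BALB/cJ than C57BL/6J (0.49, adjusted p = 4.15e-10) and than in DBA/2J (0.54, adjusted p = 2.55e-11). Gpt was higher in BALB/cJ than C57BL/6J (0.75, adjusted p = 4.63e-09), and Psat1 was higher in DBA/2J than C57BL/6J (0.86, adjusted p = 2.79e-06, and 0.70 without 1RC210), opposite in sign to liver. Fibre and cell markers differed between the same strains. In DBA/2J against C57BL/6J 8 of 9 slow fibre markers were higher (median 0.96) and 4 of 13 fast fibre markers lower. Slow fibre markers summed to 2.08 to 2.76% of CPM in BALB/cJ RC muscles, 2.95 to 4.31% in DBA/2J and 0.0331 to 3.22% in C57BL/6J (medians 2.47%, 3.75% and 2.95%). In BALB/cJ 8 of 12 macrophage markers were higher than in C57BL/6J and 9 higher than in DBA/2J, and 4 and 6 of 12 adipocyte markers were higher. The part of these markers in the members' differences was not tested. The BALB/cJ minus C57BL/6J count was 9 without 1RC226 or 1RC235 and 23 without 1RC251 or 1RC252. The BALB/cJ minus DBA/2J count was 4 to 6 without 2RC200, 2RC209, 2RC211, 2RC228 or 2RC231 and 20 to 23 without 2RC201, 2RC208, 2RC210, 2RC229 or 2RC230.

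In adipose tissue Glul stood highest per length, followed by Bckdha (63.7 CPM per kb), Bckdhb (60.6) and Fah (57.8), and Psat1 (28) and Asns (17.4) were far above their liver levels per length, across tables that were normalized separately. For diet 0 of the 41 members passed the test by limma over all strains and days (2.67% of all genes), in BALB/cJ (0.435%), in DBA/2J (0.411%) and in C57BL/6J (0.115%), and the diet effect differed between strains for 0 (0.0846%). At an unadjusted p below 0.05 there were 3 members over all strains and days, 9 in BALB/cJ, 2 in DBA/2J, 1 in C57BL/6J and 4 by strain, against 2508, 3005, 1206, 972 and 1278 of 16541 genes. Glul averaged 9.49 ± 0.89 log2 CPM on HFD and 10.01 ± 0.87 on RC (difference -0.51 ± 0.16 SE, adjusted p = 0.0685). The count was 1 without any of 8 libraries, or without 3HF201 and 3HF208 together, over all strains and days, and in BALB/cJ 3 members were called without 3HF202 and 1 without 3HF224, both of day 5.

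The libraries were divided by Cd79a, a B cell gene, after the values were seen: 40 of 72 had it at 5 log2 CPM or more. They comprised 7 BALB/cJ HFD and 8 BALB/cJ RC, 4 DBA/2J HFD and 3 DBA/2J RC, and 8 C57BL/6J HFD and 10 C57BL/6J RC libraries. The tryptophan genes followed this split. Kynu, which splits kynurenine, was at 2.31 to 4.56 (median 3.92) in the 40 and at -3.01 to 1.32 (median -0.93) in the other 32, with no overlap. Kmo was at 3.52 to 6.27 in the 40 and -0.72 to 2.62 in the others, and Haao at 3.02 to 5.29 and -1.85 to 3.22. The 14 lymphocyte markers summed to 0.00576 to 0.673% of CPM on HFD (median 0.236%) and 0.00876 to 0.612% on RC (median 0.366%), with 0 of them at zero reads in all libraries.

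**Figure D5:**
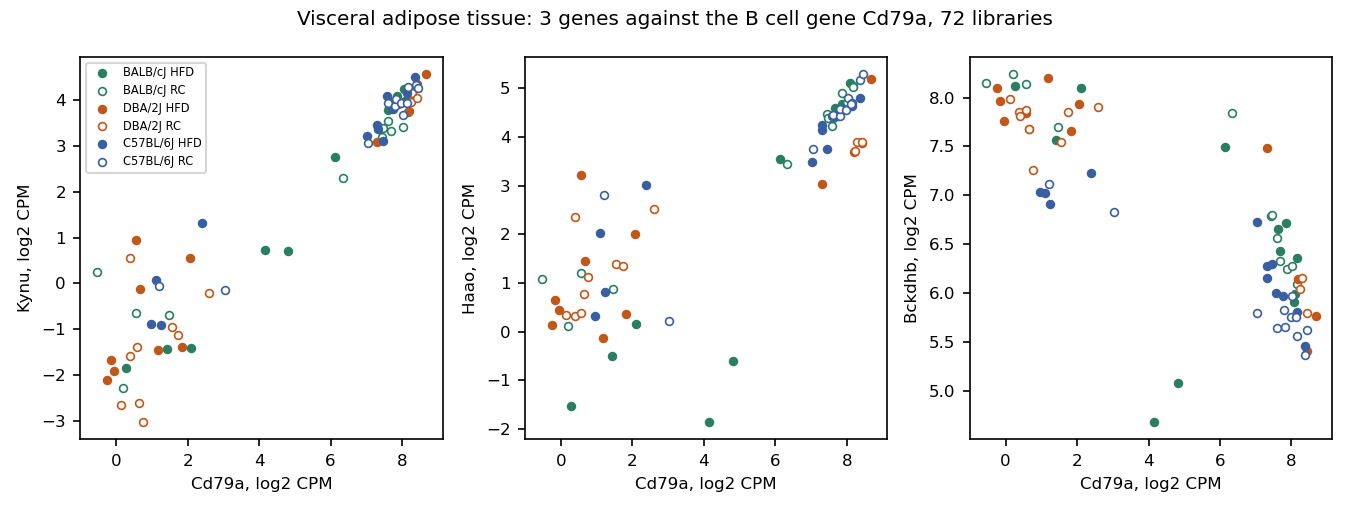
Adipose log2 CPM of Kynu, Haao and Bckdhb (y axes) against that of the B cell gene Cd79a (x axes) in the 72 libraries. Kynu is at 2.31 or more in each library with Cd79a at 5 or more and at 1.32 or less in the others.

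On RC 10 members differed in adipose tissue of DBA/2J against C57BL/6J (41.7% of all genes), 6 in BALB/cJ against C57BL/6J (11.2%) and 2 in BALB/cJ against DBA/2J (16.2%). Against C57BL/6J, DBA/2J had lower Kynu (-3.33), Kmo (-2.28) and Haao (-2.28), and 13 of 14 lymphocyte markers were lower there as well (median -3.83). Only 3 DBA/2J and 10 C57BL/6J libraries on RC had Cd79a at 5 or more, and there the strain ranges overlapped for each of the 3 genes. Kynu was at 3.95 to 4.16 in DBA/2J, within the 3.05 to 4.33 of C57BL/6J. Kmo was at 5.41 to 5.66 in DBA/2J, against 4.36 to 5.56 in C57BL/6J. Haao was at 3.71 to 3.91 (median 3.89) in DBA/2J, against 3.74 to 5.29 (median 4.62) in C57BL/6J. Hal, the histidine enzyme, was higher than in C57BL/6J in BALB/cJ (3.53, adjusted p = 2.75e-08) and in DBA/2J (2.14). Below a Cd79a of 5 there were 4 BALB/cJ, 9 DBA/2J and only 2 C57BL/6J libraries on RC. In these Hal was at 4.34 to 4.68 in BALB/cJ, 2.25 to 3.06 in DBA/2J and 0.58 to 1.32 in C57BL/6J, and the 3 strains did not overlap. At 5 or more it was at 3.04 to 3.92 in BALB/cJ, 1.62 to 2.29 in DBA/2J and -0.95 to 1.75 in C57BL/6J, so that DBA/2J and C57BL/6J overlapped. Bckdhb was higher than in C57BL/6J in BALB/cJ (1.19) and in DBA/2J (1.41, adjusted p = 0.000321), and below a Cd79a of 5 it was at 7.70 to 8.24 in BALB/cJ, 7.25 to 7.98 in DBA/2J and 6.83 to 7.12 in C57BL/6J. At 5 or more BALB/cJ overlapped with DBA/2J and DBA/2J with C57BL/6J, with 6.09 to 7.84 in BALB/cJ, 5.80 to 6.15 in DBA/2J and 5.36 to 5.97 in C57BL/6J. Of 12 adipocyte markers 5 were higher and 0 lower in DBA/2J than C57BL/6J (median 1.03), and 0 were called in BALB/cJ against C57BL/6J (median 0.60). They summed to 1.33 to 7.74% of CPM in BALB/cJ RC libraries (median 2.63%), 1.31 to 5.9% in DBA/2J (4.56%) and 0.989 to 5.16% in C57BL/6J (1.85%), with 0 of them at zero reads in all libraries. Below a Cd79a of 5, Adipoq was at 10.89 to 12.31 in DBA/2J and 11.99 to 12.05 in C57BL/6J. The part of the adipocyte and lymphocyte shifts in the members' differences was not tested. Glul was higher in BALB/cJ than C57BL/6J (0.98) and than in DBA/2J (1.08, adjusted p = 0.00458). The BALB/cJ minus C57BL/6J count was 3 without BALB/cJ RC animal 3RC203 of day 5.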

How the data were processed

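RNA of 3 tissues was sequenced as stranded polyA libraries in single reads on a HiSeq instrument, per the labels' protocols, and reads were aligned with STAR 2.5.3a to GRCm38 and processed with edgeR, per the submitters' processing notes. The values deposited by the authors are log2 CPM per gene, 1 table a tissue. Levels were set across tables only per length within a gene and in the hepatocyte marker ratio, which used liver CPM. The prior count behind the log2 CPM came out at 0.25 reads in liver and 2 in muscle and adipose tissue. With it 100% of the deposited values of lower counts gave whole reads within 0.05 reads. Values of high counts were not part of this check. Of 224 labelled samples, 8 liver libraries with a letter after their number are not analysed here.

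Each table was fitted as a whole with limma 3.58.1 (trended variance, R 4.3.3) over 18 groups of strain, diet and day, with 54 residual degrees of freedom and Benjamini-Hochberg adjusted p below 0.05 as the call, after a filter of log2 CPM of 0 or more in 4 libraries that left out 0, 0 and 1 genes. Differences are of log2(CPM) with the authors' prior count, which understates those of low genes. The fit was tested on simulated data. The sources do not say whether animals shared a litter or cage, so p-values measure the spread between these samples. The members, gene lists and tests were chosen with earlier results of these data known. Named genes were the up to 5 highest and lowest called members over all strains, up to 3 each way per strain, those with the smallest p for a difference between strains or days, up to 4 per strain pair, and fixed defining members of each role. Others were named after their values were seen. Promoters came from RefSeq (GRCm38.p6), and variance shares and tables from Python 3.11.15 with pandas 2.3.3. Alternatives were no filter or a stricter one, quantile normalization, no variance trend, voom on the recovered reads (statmod 1.5.0 for the block), another prior count, the number range of the animals as covariate or taken singly, a replicate block, only the animals compared, each animal left out, and marker covariates and the 3 libraries that stood apart left out, which were added after seeing the data.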

Additional observations from a re-analysis of the deposited data

Results flagged for a closer look

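In liver the effect of HFD differed between strains by limma's test of the difference itself for Prodh (adjusted p = 0.000163), Tdo2 (0.00289), Tat (0.00398), Asl (0.00546), Gpt2 (0.0166), Gldc (0.0173), Nags (0.0277), Hal (0.0423) and Fah (0.0489). It differed between days for Sds (adjusted p = 0.00517), Prodh (0.0114), Tat (0.0128), Asl (0.0154), Aass (0.0225), Ass1 (0.0425), Gpt2 (0.0430) and Cps1 (0.0435). In muscle it differed between strains for Got1 (adjusted p = 0.00868) and Gpt (adjusted p = 0.0413).

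Of the groups of 4 animals whose values are printed or plotted, 54 were tested for a sample far from the other 3. Many plotted groups were not among the 54. By Dixon's 95% limit on the gap over the range, 9 of the 54 had such a sample. Chance gives such a gap in about 1 in 20 groups, and its share over all plotted groups was not tested. For Ass1 in liver these were the highest C57BL/6J HFD animal at day 33 (10.76 log2 CPM), the highest BALB/cJ RC animal at day 33 (11.19) and the highest DBA/2J RC animal at day 13 (11.41). For Asns in liver they were the highest C57BL/6J HFD animal at day 5 (3.08) and the highest C57BL/6J RC animal at day 13 (1.95). For Psat1 in muscle they were the lowest C57BL/6J RC animal at day 33 (0.52, from the library with low Myh7) and the lowest DBA/2J RC animal at day 33 (2.62). For Glul in muscle they were the highest BALB/cJ HFD animal (7.91) and the highest C57BL/6J RC animal (9.23, from the library with low Myh7), both at day 33.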

How the results depend on the processing

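Counts of called members are given here. In liver, the 24 over all strains and days became 1 in the middle and 1 in the upper number range, which hold 18 and 21 animals against 29 in the lower one. Single differences turned there: Gpt2 (0.112), Sds (0.00536) and Ftcd (0.00335) in the middle range, and Tat (0.0165), Fah (0.0235), Sds (0.0582) and Uroc1 (0.00523) in the upper range. In the upper range Asns in muscle turned to -0.00715. Quantile normalization gave 10 in BALB/cJ liver, day 13 had 1 without the variance trend and 1 with voom, and the number range as covariate gave 7 in C57BL/6J and 13 by day. With the hepatocyte covariate C57BL/6J had 2 and the difference by day 2. The cause of these shifts was not tested. The other settings gave 21 to 25 in DBA/2J, 22 to 27 at day 33 and 8 to 13 by strain. Over all strains and days, Mat1a, Kmo, Oat and Fah lost their call with the hepatocyte covariate, as did Tat.

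Leaving out each animal in turn gave 22 to 27 in liver over all strains and days, 14 to 22 in BALB/cJ, 20 to 24 in DBA/2J, 3 to 8 in C57BL/6J, 7 to 13 by strain, 5 to 14 by day, 8 to 15, 1 to 3 and 26 to 27 at day 5, 13 and 33, and on RC 24 to 27 (DBA/2J minus C57BL/6J), 24 to 30 (BALB/cJ minus C57BL/6J), 15 to 20 (BALB/cJ minus DBA/2J) and 0 to 0 (day 33 minus day 5). In muscle it gave 5 to 7 over all, 3 to 4 in BALB/cJ, 1 to 5 in DBA/2J, 1 to 3 in C57BL/6J, 1 to 3 by strain, and on RC 8 to 10, 9 to 23 and 4 to 23 for the same pairs. In adipose tissue it gave 0 to 1 over all, 0 to 3 in BALB/cJ, 0 to 0 in DBA/2J, in C57BL/6J and by strain, and on RC 8 to 11, 3 to 8 and 2 to 3.

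In muscle the stricter filter, which tests fewer members, gave 2 over all, 2 in BALB/cJ, 8 for BALB/cJ minus C57BL/6J and 5 for BALB/cJ minus DBA/2J. For these pairs voom gave 9 and 6 and the number range covariate 8 and 7, and for BALB/cJ minus DBA/2J the other prior count and only the animals compared gave 8 each and the hepatocyte covariate 6. Over all strains and days the lower, middle and upper ranges gave 3, 1 and 1. C57BL/6J had 7 with the hepatocyte covariate and 1 without animal 1RC210, without which the difference by strain also had 1. In adipose tissue the stricter filter gave 5, 2 and 1 for DBA/2J minus C57BL/6J, BALB/cJ minus C57BL/6J and BALB/cJ minus DBA/2J. The last pair had 1 with the other prior count, 1 with the number range covariate and 7 with the marker covariates. Over all strains and days 1 was called with quantile normalization, the number range covariate, the lower range alone, the marker covariates, or without 3HF201 and 3HF208, and BALB/cJ had 1 with quantile normalization and 1 with the marker covariates.

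The labels do not say whether the same number on an HFD and an RC animal pairs them, and the main fit did not pair them. Over 20 such pairs the correlation of deviations had a median of 0.13 in liver (-0.43 to 0.59, with 12 pairs over 0.1). The median was 0.00 in muscle (-0.85 to 0.76) and -0.36 in adipose tissue (-0.83 to 0.62). These correlations cannot decide whether the animals were paired. With numbers as a replicate block, BALB/cJ minus DBA/2J in adipose tissue had 1, against 2 in the main fit. DBA/2J and BALB/cJ livers at day 5 then had 11 and 14, against 7 and 9. Depth limits Psat1 and Asns in liver, with medians of 23 and 21 reads.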
